A study of Mus musculus with 8 samples.

Results

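The miR-29 family of microRNAs (miRNAs) was examined in LSK cells (Lin-cKit+Sca1+), the part of mouse bone marrow in which blood stem cells and their earliest progeny are found. Its members were taken by name: every probe called mmu-mir-29a, mmu-mir-29b or mmu-mir-29c, whatever its copy number or form. This gave 3 miRNAs of the 341 named on the array, read by 5 of 433 probe names in the table for mature miRNAs and by 4 of 274 in the table for precursors. Each of these 9 names was a single probe row, measured on all 8 arrays.

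Each array held LSK RNA of 1 mouse, and the 4 mice of a group are biological replicates per the labels. All mice were 10-week-old C57BL/6 females homozygous for floxed Tsc1, which encodes a brake on the growth-controlling kinase complex mTORC1. The Tsc1 cKO group (Tsc1f/f, Mx1-Cre+, 4 mice) also carried the Mx1-Cre transgene, which polyinosinic:polycytidylic acid (pIpC) switches on through the interferon response, and the Ctrl group (Tsc1f/f, Mx1-Cre-, 4 mice) were Cre-negative littermates. Both groups received 7 injections of pIpC at a dose of 400 µg, so both were exposed to an interferon inducer. Cells were sorted 10 days after the last injection. Mx1-Cre is active in blood cells in general and in other interferon-responsive tissues, so deletion was not limited to LSK cells, and the miRNA probes do not read Tsc1 itself. In its design text the series speaks of conditional alleles of Raptor as well, a part of mTORC1, but no genotype label does, so the groups are taken as Tsc1 deletion and its control.

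An miRNA is transcribed as part of a long primary RNA, cut to a hairpin precursor by Drosha and then to a mature strand by Dicer, and the seed near its 5′ end selects its target messenger RNAs. The miR-29 family is known for targeting the DNA methyltransferases Dnmt3a and Dnmt3b, the survival factor Mcl1 and many collagens. In mouse blood formation miR-29a is known as a miRNA of stem cells whose loss impairs stem cell function and whose overexpression in progenitors leads to myeloid disease, and Myc is known to repress the family.

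The mature strands below, taken from the RefSeq table of build GRCm38.p6, show why the family is treated as a unit and why its probes may not read its members apart. The seed, bases 2 to 8 from the 5′ end, is in capitals.
miR-29a-3p: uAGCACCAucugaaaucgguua
miR-29b-3p: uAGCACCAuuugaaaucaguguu
miR-29c-3p: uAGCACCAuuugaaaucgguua
The 3 strands share the seed AGCACCA, which no other of the 1679 mature names in that table has. Counted from the 5′ end, miR-29a-3p and miR-29c-3p differ by 1 substitution, C10U, and are identical at 21 of 22 bases. miR-29c-3p and miR-29b-3p differ by G18A, U21G and A22U, and miR-29b-3p is 1 base longer. The sequences of the array's probes were not used here, and how far a probe for one member or form also reads another was not tested.

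The 4 hairpins named in the precursor table, at 2 places in the genome, give rise to these strands, and they are shown, with the 3p strand in capitals, because the copies differ only outside it. Mir29a lies on chromosome 6 at chr6:31062660-31062747 on the minus strand, 275 bases from Mir29b-1 at chr6:31063023-31063093 on the same strand. Mir29b-2 lies on chromosome 1 at chr1:195037040-195037120 on the plus strand, 426 bases from Mir29c at chr1:195037547-195037634.
Mir29a: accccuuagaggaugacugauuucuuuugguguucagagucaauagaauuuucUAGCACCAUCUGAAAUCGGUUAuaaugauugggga
Mir29b-1: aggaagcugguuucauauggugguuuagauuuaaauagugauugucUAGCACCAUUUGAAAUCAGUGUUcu
Mir29b-2: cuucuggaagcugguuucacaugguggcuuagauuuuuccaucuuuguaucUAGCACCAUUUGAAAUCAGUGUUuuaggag
Mir29c: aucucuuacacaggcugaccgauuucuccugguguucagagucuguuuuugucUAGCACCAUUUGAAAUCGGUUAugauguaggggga
Mir29b-1 and Mir29b-2 yield the same 3p strand, so by name the mature probes miR-29b, miR-29b-1 and miR-29b-2 have 1 miRNA as their target. They are not taken as independent of each other, and whether each reads only that strand was not tested. The hairpins differ outside that strand, and only there can a probe tell the copies apart.

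On every array a large share of the probes clustered at a common low value, the mode of the log2 intensities, called background here. It lay at a log2 intensity of 14.98 to 15.02 in samples 1 and 2 of both groups and at 14.56 to 14.64 in samples 3 and 4, so levels are also given as log2 units above the background of their own array, and names with a mean over 1 unit above it are called bright. The labels give scanner 4000B for 6 arrays, 4001B for Tsc1 cKO 3 and 4002B for Tsc1 cKO 4, and on Tsc1 cKO 4 only 74 mature names exceeded that limit, against 93 to 112 on the other arrays. Of the markers of other cells, 0 of 3 erythroid, 0 of 19 non-haematopoietic, 1 of 11 stromal or endothelial and 4 of 7 lymphoid names were bright, while the myeloid miR-223 stood 5.03 units above background in Ctrl and 4.78 in Tsc1 cKO. Bright is a mean over both groups, and the erythroid miR-486 had a Ctrl mean of -0.19 and a Tsc1 cKO mean of 1.18 units (log2 fold change 1.35, SE 0.57, limma adjusted p = 0.902). The erythroid names miR-144 and miR-451 lay at background and did not share this rise, with changes of 0.03 and -0.28 log2 units. The summed erythroid intensity, which includes miR-486, ranged from 62939 to 120815 in Ctrl and from 81864 to 216891 in Tsc1 cKO. For the lymphoid miR-150 these means were 1.49 and 0.66 (log2 fold change -0.85, SE 0.26, limma adjusted p = 0.605). Of the 7 names chosen as markers of the LSK fraction only miR-130a was bright (2.72 units in Ctrl, 1.81 in Tsc1 cKO), and miR-125a and miR-196b lay at background. Here too the limit uses both groups. Among Ctrl mice alone the mean of miR-99b was 1.12 units, that of miR-125b-1 0.97, of miR-125b-2 0.90 and of miR-125b 0.43. Among Tsc1 cKO mice the same names, in this order, averaged 0.64, -0.23, -0.48 and -0.51 units. All 7 had a negative log2 fold change, against 64.9% of all 433 mature names. The median of the 7 was -0.93, and -0.68 after quantile normalization, against -0.04 and 0.02 for all mature names. With limma 0 of the 7 passed and 3 had an unadjusted p under 0.05, all lower. Their summed intensity ranged from 287008 to 623704 in Ctrl and from 176441 to 352391 in Tsc1 cKO. The part of the make-up of the sorted cells, or of the scanner, in the results below was not tested. In bulk RNA fewer cells of a type and less RNA per cell cannot be told apart.

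All 5 mature miR-29 names had a lower mean in the Tsc1 cKO group, with log2 fold changes from -0.90 to -0.23 and a median of -0.55, and none passed the test. With limma, 0 of 5 had an adjusted p under 0.05, as did 0% of the 433 names, and 0 of 5 had an unadjusted p under 0.05, against 19 names of the table (17 of them lower, 3.93%). The groups overlapped for all 5, while 0.924% of the 433 names had all Tsc1 cKO mice below all Ctrl mice and 0% had them above. A negative log2 fold change was common in this table: 64.9% of all mature names and 80.9% of the 94 bright ones had one, with medians of -0.04 and -0.24. The count of 5 of 5 is therefore read against a table that leans the same way, and 3 of the 5 probes are named for 1 miRNA.

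miR-29a, the member best known from stem cells, had the widest spread of the family in Tsc1 cKO mice. Its log2 intensity was 16.44, 16.74, 16.19 and 15.98 in Ctrl 1 to 4 and 16.74, 16.18, 15.00 and 13.82 in Tsc1 cKO 1 to 4. The Ctrl mice lay close together, Tsc1 cKO 1 matched the highest Ctrl mouse, Tsc1 cKO 2 lay within the Ctrl range, and Tsc1 cKO 3 and 4 lay below every Ctrl mouse. The means were 16.34 ± 0.33 in Ctrl and 15.43 ± 1.30 in Tsc1 cKO (SD, n = 4 each), a log2 fold change of -0.90 (SE 0.54, limma adjusted p = 0.9999). On Tsc1 cKO 4 the probe was 0.74 log2 units below background, at a value of -0.74, against 1.34 to 1.74 units above it in Ctrl. Leaving out Tsc1 cKO 4 gave a log2 fold change of -0.36, and leaving out Tsc1 cKO 1 gave -1.34. With values under background raised to that level the log2 fold change of miR-29a was -0.72 (SE 0.42).

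Relative to the Ctrl mean and above background, miR-29a deviated by 0.25, -0.36, -1.14 and -2.26 on Tsc1 cKO 1 to 4. The value on Tsc1 cKO 4 includes the part that lay below background. The median deviation of the 94 bright names on these arrays was -0.06, 0.03, -0.14 and -0.89. Bright names were chosen by a mean over both groups, which miR-29a passed through its Ctrl level (1.52 in Ctrl, 0.64 in Tsc1 cKO), so a name this low in Tsc1 cKO can drop out of them and no rank among them is given. The arrays with low miR-29a are those labelled with scanners 4001B and 4002B. If the labels hold, genotype and scanner cannot be told apart there, but the number rises by 1 from array to array, as in a label filled down a column, and may not mark another scanner. Without those arrays, Tsc1 cKO 3 and 4, the log2 fold change was 0.12 (limma adjusted p = 0.810). That fit set Tsc1 cKO 1 and 2 against Ctrl 1 to 4, whose background differs between samples. The median of all mature names was then 0.19, with 24.5% of them lower, so miR-29a lay below that median. In samples 1-2 the log2 fold change of miR-29a was -0.13, against -1.68 in samples 3-4. The difference between these sets was not tested.

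miR-29c, which differs from miR-29a at a single base, also lay below the Ctrl range on Tsc1 cKO 3, but by less than miR-29a did. This difference on a single array was not tested. The log2 intensity of miR-29c was 16.06, 16.37, 15.85 and 15.90 in Ctrl and 16.35, 15.25, 15.66 and 14.72 in Tsc1 cKO. Tsc1 cKO 1 again lay with the highest Ctrl mouse, and the other 3 Tsc1 cKO mice were below the lowest Ctrl mouse, Tsc1 cKO 2 and 4 by more than Tsc1 cKO 3. The means were 16.04 ± 0.23 in Ctrl and 15.49 ± 0.69 in Tsc1 cKO (SD, n = 4 each), with a log2 fold change of -0.55 (SE 0.33, limma adjusted p = 0.9999). Above background it stood at 1.04 to 1.37 units in Ctrl, and at 1.37, 0.23, 1.04 and 0.16 in Tsc1 cKO 1 to 4. Its mean over all arrays, 0.96 units above background, was just under the limit for a bright name. With Tsc1 cKO 4 left out the log2 fold change was -0.29, and with Tsc1 cKO 1 left out it was -0.84.

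The 3 probes for miR-29b differed in how clearly they left background. The miR-29b-2 probe was bright, at a log2 intensity of 16.28, 16.82, 16.04 and 15.83 in Ctrl and 16.33, 15.75, 15.89 and 15.23 in Tsc1 cKO. The groups overlapped, with Tsc1 cKO 2 and 4 below the lowest Ctrl mouse. Its means were 16.24 ± 0.42 and 15.80 ± 0.45 (SD, n = 4 each), a log2 fold change of -0.44 (SE 0.29, limma adjusted p = 0.9999). Without Tsc1 cKO 4 it was -0.25, and quantile normalization gave -0.17.

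The miR-29b-1 probe lay closer to background, at 15.54, 15.53, 15.45 and 14.93 in Ctrl and 15.61, 14.91, 15.16 and 14.86 in Tsc1 cKO. The groups overlapped over most of their range, and the mean was 0.55 units above background in Ctrl and 0.34 in Tsc1 cKO. Its log2 fold change of -0.23 (SE 0.24, limma adjusted p = 0.9999) was the smallest of the family, and quantile normalization gave 0.037.

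The probe named miR-29b without a copy number stood at 15.12, 15.84, 14.93 and 14.61 in Ctrl and 15.33, 13.48, 14.39 and 14.88 in Tsc1 cKO. It exceeded background by 1 unit on 0 of 8 arrays and lay below it on 3, so its log2 fold change of -0.60 (SE 0.40) reads mostly background. Its lowest value was on Tsc1 cKO 2, at -1.54 relative to background, an array on which the miR-29b-2 probe, named for the same miRNA, was 0.73 above it. With values under background raised to that level the log2 fold change of miR-29b was -0.17.

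**Figure D1:**
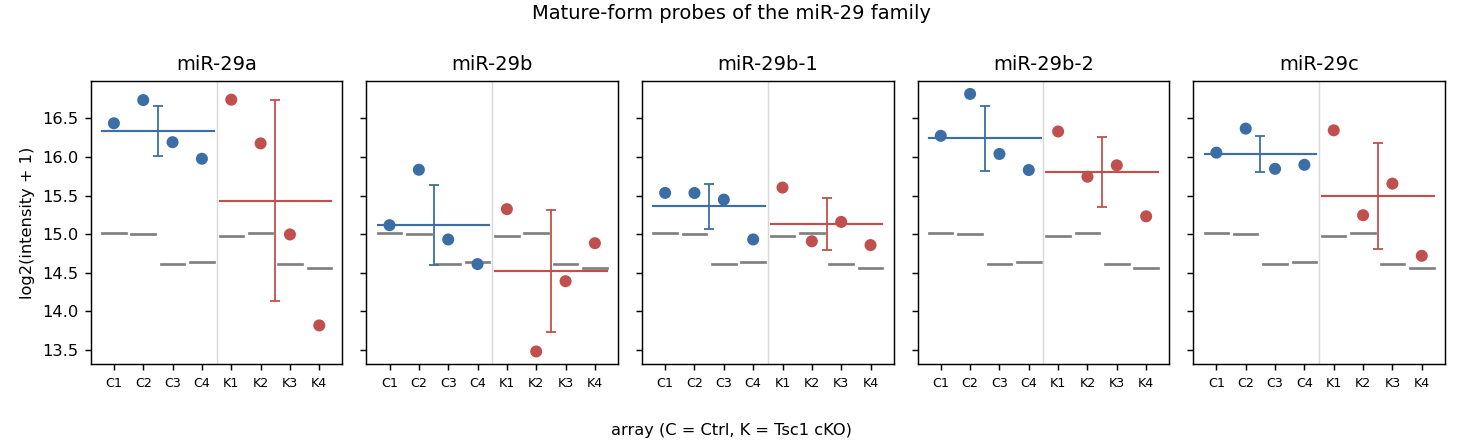
Log2(intensity + 1) of the 5 mature miR-29 probes on each array (blue, Ctrl 1 to 4; red, Tsc1 cKO 1 to 4), with group means (coloured lines), SD (bars) and the background level of each array (grey lines). miR-29a spans 15.98 to 16.74 in Ctrl and 13.82 to 16.74 in Tsc1 cKO, and the groups overlap for every probe.

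Within each array the standing of a probe among the mature names was compared, first for the 3 probes that were over 1 unit above background on all Ctrl arrays. This choice uses the Ctrl level, so a high Ctrl standing follows in part from it. Among the 4 Tsc1 cKO arrays each of the 3 probes was over 1 unit on 2. The spread was not tested. miR-29a held the 80.8th to 82.9th percentile of mature names on the Ctrl arrays, and 84.3, 77.8, 67.8 and 4.40 on Tsc1 cKO 1 to 4. miR-29c held 77.5 to 79.6 in Ctrl and 81.9, 61.6, 78.7 and 68.1 in Tsc1 cKO. miR-29b-2 held 78.9 to 83.1 in Ctrl and 81.5, 72.9, 81.0 and 79.9 in Tsc1 cKO. A percentile does not depend on how the arrays are scaled. By this measure Tsc1 cKO 1 was above the Ctrl range for miR-29a and miR-29c, and Tsc1 cKO 2 was below it for all 3 probes. Tsc1 cKO 3 was below it for miR-29a alone of the 3, and Tsc1 cKO 4 for miR-29a and miR-29c. The probes nearer to background varied more in Ctrl as well: miR-29b held 31.5 to 72.9 in Ctrl and 0.926 to 74.8 in Tsc1 cKO, and miR-29b-1 held 63.2 to 73.6 and 19.4 to 74.3.

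**Figure D2:**
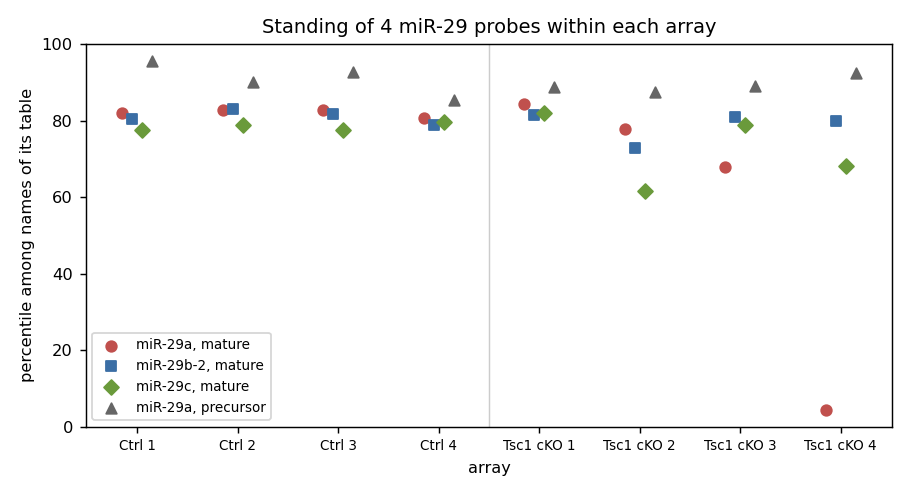
Percentile of 3 mature miR-29 probes among the 433 mature names, and of the miR-29a precursor probe among the 274 precursor names, on each array. The 3 mature probes were chosen by their level in Ctrl. The Ctrl values of the mature probes lie between 77.5 and 83.1, and mature miR-29a is at 67.8 on Tsc1 cKO 3 and 4.40 on Tsc1 cKO 4 while its precursor is between 87.5 and 92.3 on the Tsc1 cKO arrays.

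Whether the members or copies changed unequally was asked from the per-array difference between 2 probes, which is free of the scaling of arrays. All 10 pairs of mature names were tested with a 2-sided exact permutation test over the 70 assignments of the 8 mice. The lowest p was 0.200 (miR-29b-1 against miR-29c) and the lowest adjusted p 0.612, where 0.0286 is the smallest p that 4 against 4 mice can give. A single pair can therefore not go below an adjusted p of 0.286. The log2 fold change of miR-29a was 0.35 below that of miR-29c, a difference of -0.35 with an interval of shifts not rejected by the test from -1.28 to 0.85 (exact p = 0.429). For the cluster mates miR-29a and miR-29b-1 it was -0.67 (-2.24 to 0.52, exact p = 0.400), and for miR-29b-2 and miR-29c 0.11 (-0.46 to 0.57, exact p = 0.429). For miR-29b-1 and miR-29b-2, the probes named for 1 miRNA, it was 0.21 (-0.24 to 0.91, exact p = 0.314). The intervals are wide, and a difference of 0.5 log2 units in favour of the first name lies within each of these 4. Single mice moved them: for miR-29a against miR-29c leaving out Tsc1 cKO 4 gave -0.07 and leaving out Tsc1 cKO 2 gave -0.68, and for miR-29a against miR-29b-1 the same omissions gave -0.23 and -0.996. With 1 mouse left out it ranged from 0.022 to 0.22 for miR-29b-2 against miR-29c, and from 0.076 to 0.31 for miR-29b-1 against miR-29b-2.

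Precursors were compared because the title of the series concerns miRNA biogenesis. Of the 4 miR-29 precursor probes only that for miR-29a was bright, and 3 of 4 had a negative log2 fold change (median -0.33), against 59.1% of the 274 precursor names (median -0.03). None of the 4 passed with limma, as did 0% of the table, and 0 of 4 had an unadjusted p under 0.05, against 7 of the 274 (2.55%, all lower). The groups overlapped for all 4, while 1.09% of the table had all Tsc1 cKO mice below all Ctrl mice and 0% above.

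The miR-29a precursor stood at 17.13, 16.39, 16.00 and 15.56 in Ctrl and 16.08, 16.13, 15.78 and 15.71 in Tsc1 cKO (log2 intensity). Ctrl 1 was the highest mouse, and all 4 Tsc1 cKO mice lay inside the Ctrl range. Above the background of its array it was 1.11, 1.11, 1.16 and 1.15 in Tsc1 cKO 1 to 4, a narrow band, and 2.12, 1.39, 1.38 and 0.93 in Ctrl. The log2 fold change was -0.35 (SE 0.30, limma adjusted p = 0.9987), and -0.06 without Ctrl 1. The precursor probe was thus above background by more than 1 unit on Tsc1 cKO 4, the array on which the mature miR-29a probe was below it.

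The other 3 precursors lay at background in both groups, so their fold changes, which enter the count and median above, read background and are not given one by one. Their mean position relative to background was -0.15 for miR-29b-1, -0.28 for miR-29b-2 and -0.32 for miR-29c, and none exceeded it by 1 unit on any array. The log2 intensity of the miR-29c precursor ranged from 13.88 to 15.04 in Ctrl and from 13.62 to 14.69 in Tsc1 cKO. That of miR-29b-1 ranged from 14.57 to 15.04 and from 14.28 to 14.76, and that of miR-29b-2 from 13.85 to 14.77 and from 13.89 to 15.31.

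**Figure D3:**
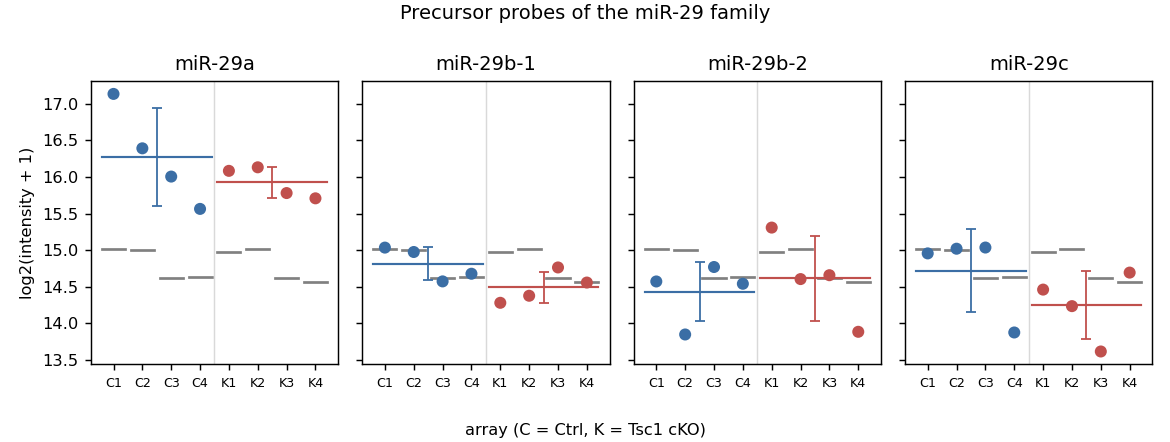
Log2(intensity + 1) of the 4 miR-29 precursor probes on each array (blue, Ctrl 1 to 4; red, Tsc1 cKO 1 to 4), with group means (coloured lines), SD (bars) and the background level of each array (grey lines). Only miR-29a stands above background, at 15.56 to 17.13 in Ctrl and 15.71 to 16.13 in Tsc1 cKO, and the other 3 scatter around it.

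The balance between both forms was taken as the log2 value of the mature probe minus that of the precursor probe of the same name on the same array. It could be formed for 4 miR-29 names of 263 matched names. The mature strand lies within the hairpin, and how far a mature probe also reads the precursor was not tested. The difference may therefore not separate both forms. For miR-29a the balance was -0.69, 0.35, 0.19 and 0.42 in Ctrl and 0.66, 0.05, -0.78 and -1.89 in Tsc1 cKO. The groups overlapped, with Tsc1 cKO 3 and 4 the lowest of all mice and Tsc1 cKO 1 the highest. The difference between groups was -0.56 (SE 0.55, limma adjusted p = 0.892), and it was 0.53 in samples 1-2, -1.64 in samples 3-4 and -0.09 without Tsc1 cKO 4. With values under background raised to that level it was -0.37 (SE 0.45).

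For the other 3 names the precursor term is background, so their balance mostly reads noise in that term and no value is given here. None of the 4 names passed, as did 0% of the 263, of which 52.9% had a negative difference, and 0 of the 4 had an unadjusted p under 0.05, against 17 of the 263 (14 of them lower, 5.32%). The groups overlapped for all 4, while 3.04% of the 263 names had all Tsc1 cKO mice below and 1.9% above all Ctrl mice.

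**Figure D4:**
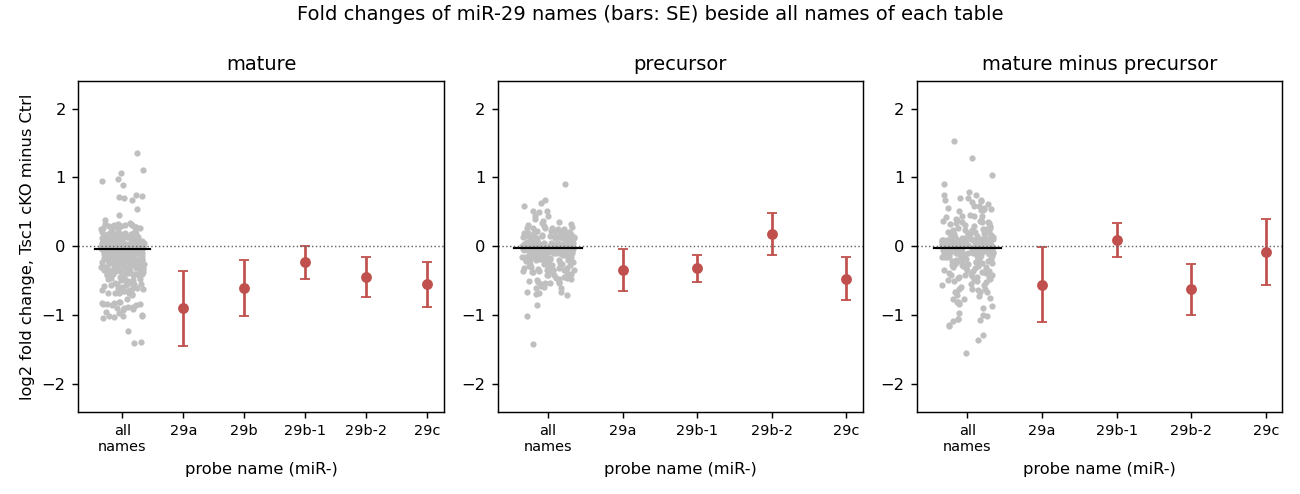
Log2 fold change (Tsc1 cKO minus Ctrl, limma, bars SE, 4 mice per group) of the miR-29 names (red) beside those of all names (grey, median as a black line) for the mature probes, the precursor probes and the difference of both forms. All 5 mature miR-29 values are negative, from -0.90 to -0.23, and lie within the cloud of all mature names, while the values that use a precursor other than miR-29a read background.

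Other miRNAs that Myc is known to repress were set beside the family. Of the 20 on the list 19 had a mature probe, in 26 names of which 20 were bright. None of the 26 passed with limma. The log2 fold change was below 0 for 22 and its median was -0.26, and 4 had an unadjusted p under 0.05, all lower, among them miR-150, which is also a lymphoid marker. Of all 433 mature names 64.9% were below 0 and 3.93% were lower at an unadjusted p under 0.05, and of the 94 bright names 80.9% were below 0. The lowest were both copies of let-7a, a family that restrains proliferation: the log2 intensity of let-7a-2 was 18.65 ± 0.48 in the Ctrl group and 17.63 ± 0.85 in the Tsc1 cKO group (SD, n = 4 each), and that of let-7a-1 was 18.04 ± 0.32 and 17.03 ± 0.67. The highest were miR-30e-5p, which lay at background (log2 fold change 0.70, SE 0.55), and miR-30a-5p (0.14, SE 0.36). The median of the list was -0.04 after quantile normalization, with 14 of 26 lower, and -0.01 without Tsc1 cKO 4, with 13 of 26 lower. For the miR-29 names the corresponding medians were -0.30, with 4 of 5 lower, and -0.29, with 5 of 5 lower. Of all mature names 42.3% and 35.6% were lower under these settings.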

How the data were processed

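LSK RNA of 8 mice was measured on 1-colour miRNA arrays. Per the labels' protocols, the authors labelled 5 µg of total RNA with a biotinylated random octamer primer and read a streptavidin-Alexa647 signal with Axon scanners. The deposited tables hold intensity on a linear scale, which their headers call normalized; the sources used here do not give how it was scaled, corrected for background or filtered. All values were positive multiples of 0.5, and a further table equalled the mature table in all 4168 cells. Log2(value + 1) was averaged over probes of one name. Each table was fitted with limma 3.58.1 in R 4.3.3 (lmFit, eBayes) without a block, with Benjamini-Hochberg adjustment over all its names at a threshold of 0.05. Fold changes are Tsc1 cKO minus Ctrl on the log2(value + 1) scale. Background is the mode of a density (bandwidth 0.1 log2 units) over both tables. Forms were matched by identical name. Pairs of members used exact permutation tests in Python 3.11.15, adjusted over the pairs. Methods were tested on simulated data. The number of arrays limits the precision. Members and lists were chosen with earlier results of these data known, and the sets of samples 1-2 and 3-4 follow the brightness of the arrays. Named besides the miR-29 probes were the 2 highest and 2 lowest names of the Myc and DNA methyltransferase lists. The 5 names most correlated with the brightest miR-29 name were named too. Which cell markers are named follows no such rule. Alternatives covered scaling, pseudocount, background floor, bright names alone, probe rows, blocks, subsets, an intensity trend and omission of each mouse.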

Additional observations from a re-analysis of the deposited data

Results flagged for a closer look

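In groups of 4 mice, 2 of the 26 sets of miR-29 values held a mouse far from the other 3 by Dixon's criterion, where chance gives about 1 in 20. Both were Ctrl 4, at a level near background. For mature miR-29b-1 the log2 intensity of Ctrl 4 was 14.93, against 15.45 to 15.54 in the other Ctrl mice. Relative to the background of each array this probe stood at 0.52, 0.53, 0.83 and 0.30 in Ctrl 1 to 4, where Ctrl 4 was less far apart. The miR-29c precursor probe stood at 13.88 in Ctrl 4, against 14.96 to 15.04 in the others. Relative to background it was -0.76 in Ctrl 4, against -0.06 to 0.42. Without Ctrl 4 the log2 fold change of mature miR-29b-1 was -0.37, against -0.23 with all mice, and the miR-29c precursor lay at background in both groups. The low miR-29a values of Tsc1 cKO 3 and 4 did not meet this limit, since the 4 Tsc1 cKO mice were spread out.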

How the results depend on the processing

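In limma fits 0 miR-29 names, and 0 names of any table, passed under each alternative run. For pairs of members the threshold could not be reached by a single pair, so their tests do not bear on stability. The median of the mature miR-29 names was negative in all 21 alternatives, from -0.84 (without Tsc1 cKO 1) to -0.20 (scanner 4000B alone, which leaves out Tsc1 cKO 3 and 4), and from -0.84 to -0.29 (without Tsc1 cKO 4) when 1 mouse was left out. These are medians of 5 names, except that the fit to bright names alone held 2 mature miR-29 names, 1 precursor and 1 difference of forms. The precursor median, -0.33, moved to -0.65 in samples 1-2 and to -0.052 with values raised to background, and ranged from -0.47 to -0.15 without 1 mouse. The median difference of forms, -0.32, moved to 0.31 in samples 1-2 and 0.21 with scanner 4000B alone, and ranged from -0.43 to 0.057 without 1 mouse. Of 260 single values 18 changed sign, and the cause was not tested. Those that use a precursor other than miR-29a read background. For mature probes these were miR-29a with scanner 4000B alone (0.12, where the median of all mature names was 0.19) and miR-29b-1 after quantile normalization (0.037). For precursors they were miR-29b-1 (0.035) and miR-29b-2 (-0.38) in samples 3-4, with miR-29b-2 from -0.050 to 0.42 without 1 mouse. For the difference of forms they were miR-29a in samples 1-2 (0.53) and with scanner 4000B (0.29), miR-29b-1 in samples 3-4 (-0.22) and with values raised to background (-0.20), miR-29b-2 in samples 3-4 (0.010), and miR-29c after quantile normalization (0.11), in samples 1-2 (0.22) and with scanner 4000B (0.13). Without 1 mouse the difference ranged from -0.14 to 0.20 for miR-29b-1 and from -0.35 to 0.32 for miR-29c. The labels do not say that equal replicate numbers pair mice; deviations of equal numbers correlated at 0.09 to 0.35, and 5 of 8 mice correlated best with their own number. With a replicate block the mature median stayed at -0.55, 0 names passed, and 48 had an unadjusted p under 0.05, against 19 without it. The paired exact test of member pairs cannot go below p = 0.125. Signal over background limits 3 precursor probes and the mature miR-29b probe.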

Other observations

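Of 5 other miRNAs known to target DNA methyltransferases, 4 were matched to a mature probe (miR-143, miR-148a, miR-148b and miR-152). These 4 probes lay at background, with mean levels between -0.18 and 0.05 log2 units relative to background. Their log2 fold changes ranged from -0.28 (miR-148b, SE 0.27) to 0.16 (miR-143, SE 0.25), with 2 of 4 lower, and limma called none (0 at unadjusted p under 0.05). Names were matched exactly, so miR-101b was not counted as miR-101, which stayed unmatched. The miR-101b precursor probe had a mean log2 intensity of 16.29 in Ctrl and 15.79 in Tsc1 cKO.

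The brightest mature miR-29 name was that of miR-29b-2, and its pattern over the 8 arrays, each set to its own background, was compared with that of the 428 mature names outside the family, as a description. The 5 most alike by Pearson correlation were miR-133a*-5p (r = 0.93), a probe at background, and 4 let-7 probes, let-7a-2 (r = 0.92), let-7a-1 (0.90), let-7d-5p (0.89) and let-7c-1 (0.87). Its cluster mate miR-29c had r = 0.90, and 2 of the 428 names were higher. miR-29b-1 had r = 0.71, with 38 names higher, miR-29a had 0.68 with 46, and miR-29b had 0.65 with 54. For deviations from the group means the 5 were miR-700 (r = 0.93), miR-133a*-5p (0.89), let-7a-2 (0.88), miR-697 (0.88) and let-7c-1 (0.85), and miR-29c again had 0.85. Spearman correlations over all arrays were 0.93 for let-7a-2 and 0.74 for miR-29c. The 8 points are shared by all names, and the arrays differ in signal range, with 74 to 112 mature names over 1 unit above background.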
